A study of Mus musculus with 9 samples.

Results

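The transcripts described here are those encoded by mitochondrial DNA, read from 9 RNA-seq libraries of mouse kidney. They were taken as every gene of the count table that lies on the mitochondrial chromosome, which gave 37 of 52636 genes. By the annotated biotype 13 of them are messenger RNA (mRNA) genes, 2 are ribosomal RNA (rRNA) genes and 22 are transfer RNA (tRNA) genes. Of these, 13 mRNA, 2 rRNA and 14 tRNA genes passed the filter on low counts and were tested among 17114 genes. The other 8, all tRNA genes, were too low to test.

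The series holds 3 libraries from C59A knock-in mice, 3 from C59S knock-in mice and 3 from wild-type (WT) mice. Both knock-in alleles change the codon for Cys-59 of Nfkb1, which encodes the NF-kB subunit p50, and both were made with a PGK-neo selection cassette in a nearby intron. The description names C59A as activated and C59S as inactivated, but what it says of DNA binding has them the other way round, so the groups are named here by allele alone. The embryonic stem cells were derived from C57BL/6NTac mice and were injected into C57BL/6 blastocysts. Age and sex are not stated in the labels, and a count per gene cannot show a codon change, so the counts do not check the genotype.

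Mitochondrial DNA is a small circle that codes for core subunits of respiratory complexes I, III and IV and of ATP synthase (complex V), together with the rRNAs and tRNAs needed to translate them inside the organelle. Both strands are copied as long precursor RNAs by the RNA polymerase Polrmt with its partners Tfam and Tfb2m, and the mRNAs and rRNAs are released where the tRNAs between them are cut out. All other subunits, and all of the machinery that copies, cuts and stabilises these RNAs, come from nuclear genes. In the kidney the proximal tubule and the thick ascending limb are especially rich in mitochondria.

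Total counts ran from 16367403 to 25787659 per library, and the mitochondrial mRNAs alone had 3001789 to 7428126 counts per library. All 10 proximal tubule markers were detected, with summed levels of 16245 to 21936 CPM (counts per 1e+06, scaled with TMM factors) in C59A and 14782 to 19553 CPM in C59S, against 20827 to 23168 CPM in WT libraries. The C59A libraries carried Y-linked transcripts, with Ddx3y at 43.2 to 46.8 CPM, against at most 0.809 CPM in C59S and 0.0952 CPM in WT libraries. For Xist, which coats the inactive X chromosome, C59A libraries had at most 0.724 CPM, against 884 to 894 CPM in C59S and 815 to 1274 CPM in WT libraries. Every difference between C59A and another group therefore cannot be told apart from this one in Y-linked transcripts. Summed white adipocyte markers were 46.4, 1.25 and 137 CPM in C59A replicates 1, 2 and 3, and 3.76, 299.8 and 626 CPM in C59S replicates 1, 2 and 3, against 0.553 to 1 CPM in WT libraries. Whether each replicate is its own animal is not stated, so the p-values reflect the spread among these samples, part of which may be technical.

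A stretch of the mitochondrial genome has a near-identical copy in the nuclear genome, and this bears on what several of the counts hold. On chr1:24611535-24616197 (GRCm38, minus strand) lie 7 annotated unprocessed pseudogenes, Gm28439, Gm10222, Gm28438, Gm28437, Gm10925, Gm28661 and Gm29216. They match mt-Nd4, mt-Nd4l, mt-Nd3, mt-Co3, mt-Atp6, mt-Co2 and mt-Co1, in the same order as those genes lie on the mitochondrial genome. Over 4137 aligned bases of the GENCODE M21 transcripts there was 1 mismatch, the substitution A1066T, counted from the first base of mt-Co1 with the pseudogene's base last. The aligned bases run from position 6390 to 11042 of the mitochondrial genome, a span that holds 6 mRNA genes (mt-Co2, mt-Atp8, mt-Atp6, mt-Co3, mt-Nd3 and mt-Nd4l) and 5 tRNA genes (mt-Ts1, mt-Td, mt-Tk, mt-Tg and mt-Tr) in full. The first 60 aligned bases of mt-Co1 (MT:6390-6449, plus strand) and of its copy (chr1:24616129-24616188, minus strand) show how alike they are, with the differing base in capitals.
mt-Co1: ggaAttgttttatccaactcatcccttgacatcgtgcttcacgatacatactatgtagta
Gm29216: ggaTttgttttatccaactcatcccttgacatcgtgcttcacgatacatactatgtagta
For mt-Nd3, one of the genes the comparisons turn on, the copy differs at the third base, just before the aligned stretch begins (T3C, counted from the first base of mt-Nd3), again in capitals (MT:9459-9518, plus strand, and chr1:24613060-24613119, minus strand).
mt-Nd3: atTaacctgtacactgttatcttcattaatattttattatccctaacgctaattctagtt
Gm28438: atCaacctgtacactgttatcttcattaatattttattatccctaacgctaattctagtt
Within mt-Nd3, 97.6% of all stretches of 100 bases also occur letter for letter in another annotated transcript, and the share is 99.5% in mt-Co2 and mt-Atp6, 99.9% in mt-Co3 and 98.5% in mt-Nd4l. It is 60.8% in mt-Nd4, 30.8% in mt-Co1 and 3.19% in mt-Nd2, and 0% in mt-Nd1, mt-Nd5, mt-Nd6, mt-Cytb and both rRNA genes. For mt-Atp8 it is also 0%. A copy of mt-Atp8 would fall between Gm10925 and Gm28661, and the genome sequence there was not used here. The read length, and whether reads that align to both places were counted, are not given in the sources used here, so the counts of the genes in this span are uncertain.

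The mitochondrial genes together took 20.8%, 28.8% and 24.9% of all counts in C59A replicates 1, 2 and 3, and 25.3%, 20.5% and 40.6% in C59S replicates 1, 2 and 3, against 19.6%, 18.8% and 16.4% in WT replicates 1, 2 and 3. All 6 knock-in libraries thus lay above all 3 WT libraries, C59S replicate 2 by the least. As a share of summed FPKM the groups overlapped, with 36.1%, 45.3% and 40.1% in C59A and 42.3%, 35.7% and 58.9% in C59S, against 36.2%, 33.9% and 30.3% in WT libraries. The 95% Wilson intervals of these shares, which cover counting error only, were at most 0.0446 percentage points wide, so the spread is between libraries. The means were 24.9% ± 4 in C59A, 28.8% ± 10.5 in C59S and 18.2% ± 1.65 in WT libraries (SD, n = 3 each), and no test was made of this summed share. C59S replicate 3, which had the highest share, was also the library with the highest white adipocyte markers and with the brown adipocyte genes Ucp1 at 28.8 CPM and Cidea at 26.8 CPM. In the other libraries Ucp1 was at most 1.62 CPM and Cidea at most 4.42 CPM. Of the other brown adipocyte markers, Dio2 was also highest in C59S replicate 3, at 1.95 CPM. Ppargc1a, at 41.7 CPM, lay within the 40.9 to 65.2 CPM of the other libraries. Elovl3, at 0.0674 CPM, was below C59S replicate 2, at 0.135 CPM. C59S replicate 2, with 299.8 CPM of white adipocyte markers, had a share of 20.5%, and C59A replicate 2, with 1.25 CPM, had 28.8%. C59S replicate 3 also had the lowest sum of nuclear retained RNAs, 2444 CPM, against 3230.3 to 7483 CPM in the other libraries. Malat1 was at 1102 CPM in it, against 1344 to 4212 CPM in the others. Neat1 and Kcnq1ot1 were lowest there too, but Meg3, at 5.93 CPM, was not. Snhg11, at 143 CPM, was above C59S replicate 2, at 141 CPM. The summed endothelial markers of C59S replicate 3, at 805 CPM, and its stromal markers, at 874 CPM, were also the highest, against 206 to 567 CPM and 225 to 535 CPM in the other libraries. C59S replicate 2 stood apart in adrenal markers, with 79.1 CPM, against 3.03 to 7.06 CPM in the other libraries. Without C59S replicate 3 the C59S mean was 22.9%. The 4 distal convoluted tubule markers summed to 963 to 1478 CPM in C59A and 1527 to 1715 CPM in C59S, against 2307 to 3539 CPM in WT libraries, with no overlap. Most of this sum was Slc12a3, at 795 to 1291 CPM in C59A and 1255 to 1429.5 CPM in C59S, against 1977 to 3300.3 CPM in WT libraries. Of the 4 markers, 3 lay below every WT library in C59A, but only 1, Slc12a3, did in C59S. Slc5a2, the glucose transporter of the proximal tubule (log2 fold change -1.44 ± 0.23, edgeR adjusted p = 0.00412), Slc12a3, the salt transporter of the distal convoluted tubule (-1.22 ± 0.24, adjusted p = 0.013), and Pvalb (-1.37 ± 0.30, adjusted p = 0.0279) fell in C59A against WT. The proximal tubule markers did not fall as a set: of the 10, 1 was called lower and 1 higher, with 7 negative and 3 positive values. In 5 of them all C59A libraries lay below all WT libraries, and in 2, Slc22a6 and Slc27a2, above. Outside these segments, 1 of 5 podocyte and 1 of 8 collecting duct markers were also called lower in C59A against WT. Over all tested genes 2.46% were called lower. The part of these markers in the share was not tested. In bulk tissue, fewer cells of a type and less RNA per cell cannot be told apart.

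Nearly all of these counts were mRNA. The 13 mRNA genes made up 97.9% to 98.9% of the mitochondrial counts in C59A libraries, 98.2% to 98.5% in C59S libraries and 97.8% to 98.6% in WT libraries. The 2 rRNA genes, mt-Rnr1 of the small and mt-Rnr2 of the large ribosomal subunit, made up 0.971% to 2.05% in C59A, 1.44% to 1.73% in C59S and 1.32% to 2.09% in WT libraries. The 22 tRNA genes made up 0.0782% to 0.1% in C59A, 0.0819% to 0.112% in C59S and 0.0387% to 0.103% in WT libraries. The groups overlapped in all 3 classes, and WT replicate 2 had the lowest tRNA share. Whether rRNA was depleted or polyadenylated RNA was selected is not given in the labels, so these proportions describe the libraries and not the content of the cells.

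**Figure D1:**
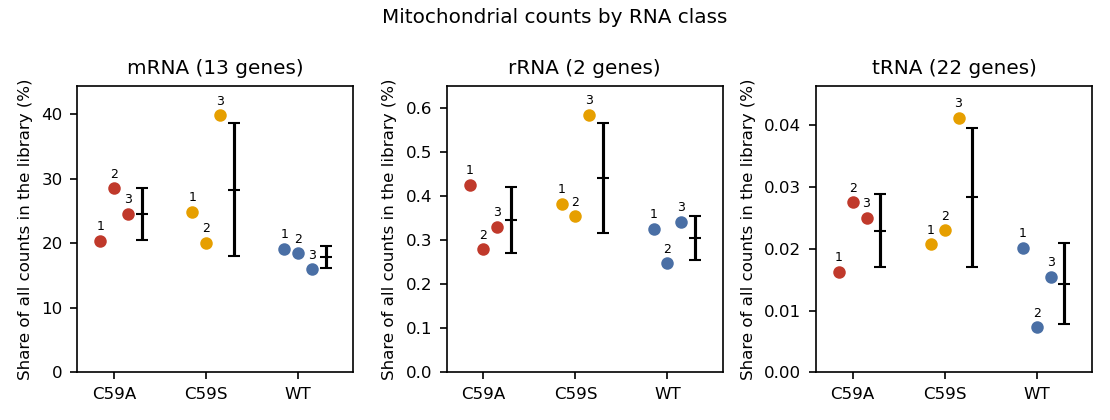
Share of all counts in a library, in percent, taken by the mitochondrial mRNA, rRNA and tRNA genes in C59A, C59S and WT libraries. Each point is a library, numbered by replicate, and the bar at the right of each group is the mean with its SD (n = 3). In the mRNA panel all 6 knock-in libraries lie above the 3 WT libraries, which sit between 16% and 19.2%, and C59S replicate 3 stands apart at 39.9%.

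The order of the mRNAs by level per gene length was nearly the same in every library. On the deposited FPKM scale mt-Cytb and mt-Co1 were highest, and mt-Nd1 ranked 2 or 3. The lead of mt-Cytb over mt-Co1 was not kept in every library: mt-Cytb ranked 1 or 2 and mt-Co1 from 1 to 3. mt-Nd2 and mt-Nd4 exchanged ranks 4 and 5, mt-Nd6 held rank 6 in all 9 libraries and mt-Nd5 rank 7 or 8. All 6 genes inside the copied span came below the other 7, apart from mt-Atp6, which reached rank 7, and mt-Atp8 was last in all 9 libraries. The median FPKM of the other 7 mRNAs was 8.45 to 12.2 times that of the 6 inside the span in C59A libraries, 8.42 to 15.4 times in C59S libraries and 11.1 to 20.9 times in WT libraries. These 6 genes took 3.8% to 4.59% of the mitochondrial mRNA counts in C59A, 3.85% to 4.35% in C59S and 2.69% to 4.01% in WT libraries.

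**Figure D2:**
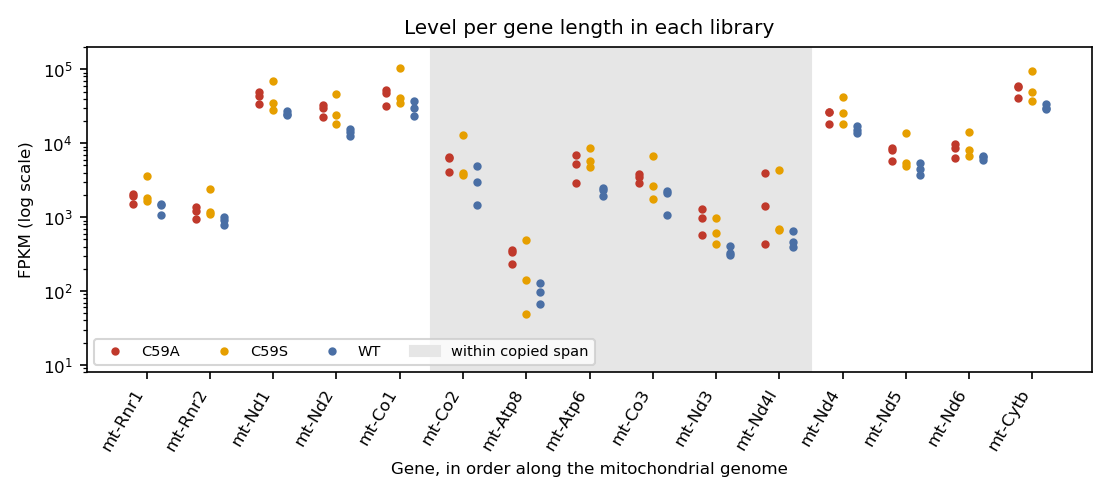
FPKM (log axis) of the 2 rRNA and 13 mRNA genes, in their order along the mitochondrial genome, with 1 point per library coloured by genotype (C59A, C59S and WT from left to right at each gene). The shaded genes lie within the span that is copied on chromosome 1, and within a library they rank below the 7 other mRNAs, apart from mt-Atp6, with mt-Atp8 lowest.

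The counts of the pseudogenes themselves were small beside those of the whole mitochondrial genome, at 0.202% to 0.444% of all counts in C59A, 0.273% to 0.509% in C59S and 0.166% to 0.28% in WT libraries. Beside the gene copied, the share varied from pseudogene to pseudogene. Gm28438 held 10%, 13% and 21.6% of the summed counts of itself and mt-Nd3 in C59A replicates 1, 2 and 3, and 49.2%, 17.9% and 34.8% in C59S replicates 1, 2 and 3, against 17.3%, 21.7% and 20.4% in WT replicates 1, 2 and 3. Gm28661 held 16.5% to 24.3% of its sum with mt-Co2 in C59A, 14.2% to 36.3% in C59S and 12.2% to 29.3% in WT libraries. Gm28439 held 0.664% to 1.27% of its sum with mt-Nd4 in C59A, 0.725% to 1.34% in C59S and 0.382% to 0.947% in WT libraries. Gm29216 held under 1% of its sum with mt-Co1, from 0.457% to 0.805% in C59A, 0.591% to 0.98% in C59S and 0.352% to 0.727% in WT libraries. The division between gene and copy thus varied from library to library within a genotype.

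The comparison of C59A with WT libraries asks how the C59A allele changes kidney RNA. Of the 29 mitochondrial genes tested, 28 had a positive log2 fold change, as did 47.6% of all 17114 tested genes, and the median was 0.75 against -0.02 over all tested genes. 2 of the 29 rose, mt-Nd3 and mt-Te, and 0 fell (edgeR, quasi-likelihood, Benjamini-Hochberg adjusted over all genes tested), where 5.7% of all tested genes were called, 3.24% higher and 2.46% lower. The count of unadjusted p-values under 0.05 was 6 of 29, where 21% of all tested genes were under it. In 14 of the 29 every C59A library lay above every WT library, which held for 12.6% of all tested genes.

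mt-Nd3 encodes a small membrane subunit of complex I. It had 342, 456 and 200.0 CPM in C59A replicates 1, 2 and 3, and 218, 151 and 345 CPM in C59S replicates 1, 2 and 3, against 144, 108 and 114 CPM in WT replicates 1, 2 and 3. All 6 knock-in libraries lay above the WT libraries, C59S replicate 2 by the least. The log2 fold change of C59A against WT was 1.45 ± 0.34 (SE; edgeR adjusted p = 0.0405), and that of C59S against WT was 0.96 ± 0.34 (edgeR adjusted p = 0.203). The C59A call was lost when the reads of its copy Gm28438 were added (1.35, edgeR adjusted p = 0.0693). With them added, the value of C59S against WT was 1.33 (edgeR adjusted p = 0.151), close to that of C59A. With the copy left apart, the C59A call was also lost without C59A replicate 1 (adjusted p = 0.111), C59A replicate 2 (0.0933), WT replicate 1 (0.0955), WT replicate 2 (0.123) or WT replicate 3 (0.106). It was kept without C59A replicate 3 (0.0191).

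mt-Te is the tRNA for glutamate, coded on the same strand as mt-Nd6 and directly next to it, at MT:14071-14139 on the minus strand. Its sequence, the only tRNA printed because it is the only one called, is given in lower case throughout.
mt-Te: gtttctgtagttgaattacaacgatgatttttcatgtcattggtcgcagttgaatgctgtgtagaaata
It had 55.3, 111 and 95 CPM in C59A replicates 1, 2 and 3, and 43.1, 62.5 and 115 CPM in C59S replicates 1, 2 and 3, against 30.7, 12.9 and 24.1 CPM in WT replicates 1, 2 and 3. Again no knock-in library reached down to the WT range, and WT replicate 2 was lowest. The log2 fold change of C59A against WT was 1.95 ± 0.45 (SE; edgeR adjusted p = 0.047), and that of C59S against WT was 1.70 ± 0.45 (edgeR adjusted p = 0.151). The C59A call was lost without any 1 of the 6 libraries, with adjusted p from 0.0545 without C59A replicate 1 to 0.144 without C59A replicate 3. Its FPKM was 12.4%, 16.3% and 15.9% of that of its neighbour mt-Nd6 in C59A replicates 1, 2 and 3, and 7.51%, 13.6% and 11.6% in C59S replicates 1, 2 and 3, against 6.45%, 3.15% and 5.35% in WT replicates 1, 2 and 3. Whether reads were counted by strand is not given in the sources used here, so reads from mt-Te and from RNA of the opposite strand cannot be told apart, nor can mature tRNA and uncut precursor.

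Of the other complex I genes, mt-Nd2, a core subunit of the membrane arm, had 23803, 34721 and 31143 CPM in C59A replicates 1, 2 and 3, and 25383, 19183 and 48366 CPM in C59S replicates 1, 2 and 3, against 16334, 15056 and 13230.4 CPM in WT replicates 1, 2 and 3. The knock-in and WT libraries did not overlap. Its log2 fold change was 1.01 ± 0.35 in C59A (edgeR adjusted p = 0.12) and 1.06 ± 0.35 in C59S against WT (edgeR adjusted p = 0.175), so neither passed. mt-Nd1, which joins the membrane arm to the rest of the complex, had 32661, 48352 and 41777 CPM in C59A, and 34365, 26912 and 67203 CPM in C59S, against 26797, 23882 and 23513 CPM in WT libraries. The lowest knock-in library, C59S replicate 2, lay just above the highest WT library. The log2 fold changes of mt-Nd1 were 0.73 ± 0.35 for C59A and 0.79 ± 0.35 for C59S against WT. mt-Nd4 and mt-Nd5, both proton-pumping subunits of the membrane arm, had log2 fold changes of 0.62 ± 0.33 and 0.72 ± 0.38 for C59A, and of 0.89 ± 0.33 and 0.83 ± 0.38 for C59S, against WT.

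mt-Nd4l, a small subunit of complex I, was the most uneven gene of that complex. It had 129, 1181 and 417 CPM in C59A replicates 1, 2 and 3, and 206, 199 and 1285 CPM in C59S replicates 1, 2 and 3, against 141, 196 and 119.6 CPM in WT replicates 1, 2 and 3. C59A replicate 1 lay inside the WT range and C59S replicates 1 and 2 just above it, while C59A replicate 2 and C59S replicate 3 were far higher. Its log2 fold changes of 1.92 ± 1.01 for C59A and 1.88 ± 1.01 for C59S against WT had the widest error of the 29. mt-Nd6, the only mRNA of the light strand, had 3354, 5115 and 4493 CPM in C59A and 4314, 3459 and 7459 CPM in C59S, against 3580.0, 3087 and 3389.8 CPM in WT libraries. The groups overlapped, and its log2 fold changes of 0.37 ± 0.29 for C59A and 0.60 ± 0.29 for C59S against WT were the smallest among the mRNAs in C59A and in C59S.

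mt-Cytb, cytochrome b of complex III, had 47597, 69797 and 65251 CPM in C59A and 56784, 42355 and 109998 CPM in C59S, against 39337, 35142 and 33763 CPM in WT libraries. All knock-in libraries lay above all WT libraries. Its log2 fold change was 0.75 ± 0.37 for C59A (edgeR adjusted p = 0.273) and 0.95 ± 0.37 for C59S against WT (edgeR adjusted p = 0.222). The core subunits of complex IV varied more. mt-Co1 had 49799, 81671 and 72893 CPM in C59A and 63329.5, 54974 and 161940.0 CPM in C59S, against 46675, 58093 and 37026 CPM in WT libraries, and the groups overlapped. mt-Co2 had 2809.9, 4479 and 4341 CPM in C59A and 2712, 2553 and 8859 CPM in C59S, against 2103, 3406 and 1010.0 CPM in WT libraries, and here too the groups overlapped. mt-Co3, the other mitochondrial subunit of the complex, had a log2 fold change of 0.90 ± 0.46 for C59A and of 1.02 ± 0.46 for C59S against WT.

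mt-Atp6, the proton channel subunit of ATP synthase, came nearest to a call in both alleles. It had 2022, 4807 and 3596 CPM in C59A replicates 1, 2 and 3, and 3937, 3233 and 5912 CPM in C59S replicates 1, 2 and 3, against 1593, 1326 and 1733 CPM in WT replicates 1, 2 and 3. No knock-in library overlapped with the WT libraries, and C59A replicate 1 was the nearest to them. The log2 fold change was 1.16 ± 0.32 for C59A (edgeR adjusted p = 0.0549) and 1.49 ± 0.32 for C59S against WT (edgeR adjusted p = 0.121). mt-Atp8, the other subunit, overlaps mt-Atp6 by 43 bases, shown in capitals at the end of the gene (MT:7910-7969, plus strand).
mt-Atp8: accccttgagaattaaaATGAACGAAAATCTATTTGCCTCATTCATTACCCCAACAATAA
Reads within these bases fit both genes. mt-Atp8 had 70, 74.5 and 47.7 CPM in C59A and 28.8, 10.1 and 100.1 CPM in C59S, against 14, 27 and 20.2 CPM in WT libraries. The C59A libraries all lay above WT, while C59S replicate 2 lay below every WT library and C59S replicate 3 above every other library. Its log2 fold change was 1.65 ± 0.76 for C59A and 1.17 ± 0.75 for C59S against WT, and the C59S value was -0.06 without C59S replicate 3.

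The rRNAs had 1976, 1479 and 1829 CPM (mt-Rnr1) in C59A and 1758, 1579 and 3475 CPM in C59S, against 1400.3, 1025 and 1453 CPM in WT libraries. mt-Rnr2 had 2233, 1537 and 1908 CPM in C59A and 1918, 1755 and 3865 CPM in C59S, against 1498, 1275 and 1595 CPM in WT libraries. Their log2 fold changes against WT were 0.45 ± 0.29 and 0.38 ± 0.29 for C59A, and 0.81 ± 0.29 and 0.79 ± 0.29 for C59S, none of which passed. The FPKM of mt-Rnr2 stayed at 0.628 to 0.682 of that of mt-Rnr1 in C59A, 0.659 to 0.671 in C59S and 0.646 to 0.751 in WT libraries. The ratio was highest in WT replicate 2.

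Among the tRNAs, mt-Tp for proline and mt-Te took most of the counts, 61.5% to 70.8% in C59A, 53.4% to 60.8% in C59S and 56.3% to 63.5% in WT libraries. Of the 14 tested, 13 had a positive log2 fold change in C59A against WT and 14 in C59S against WT. mt-Tw, for tryptophan, was the exception, with 0.543, 1.81 and 0.952 CPM in C59A and 1.83, 2.25 and 5.12 CPM in C59S, against 1.18, 2.46 and 1.52 CPM in WT libraries. Its log2 fold change of -0.63 ± 0.52 in C59A against WT did not pass. mt-Th, for histidine, had 6.51, 12.3 and 7.28 CPM in C59A and 5.92, 5.18 and 14 CPM in C59S, against 4.08, 1 and 3.29 CPM in WT libraries, with no overlap between knock-in and WT libraries. Its log2 fold change was 1.63 ± 0.53 in C59A (edgeR adjusted p = 0.116) and 1.55 ± 0.53 in C59S against WT (edgeR adjusted p = 0.195). mt-Th, mt-Ts2 for serine and mt-Tl2 for leucine lie side by side, and WT replicate 2 was low for all 3, with 82 summed counts or 6.12% of its tRNA counts (95% Wilson interval 4.96% to 7.53%). In the other libraries they took 15.7% to 21.1% in C59A, 19.5% to 27.3% in C59S and 19.2% to 20.2% in WT.

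The remaining tested tRNAs were mt-Tl1, mt-Ti, mt-Tm, mt-Tn, mt-Tc, mt-Ty, mt-Tg, mt-Tr and mt-Tp. Their log2 fold changes ran from 0.06 for mt-Tn to 0.85 for mt-Ty in C59A against WT, and from 0.59 for mt-Tn to 1.61 for mt-Ty in C59S against WT. None of them passed the adjusted test in either comparison. The 8 tRNA genes that could not be tested were mt-Tq, mt-Ta, mt-Tk, mt-Tt, mt-Ts1, mt-Td, mt-Tv and mt-Tf. mt-Tf, for phenylalanine, had no count in any library, where a floor of 3 counts corresponds to 0.112 to 0.202 CPM, and mt-Tv, for valine, had a single count, in C59A replicate 2. The annotated tRNA genes are only 59 to 75 bases long, and no size selection is given in the labels, so these levels are not comparable with those of the mRNAs.

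**Figure D3:**
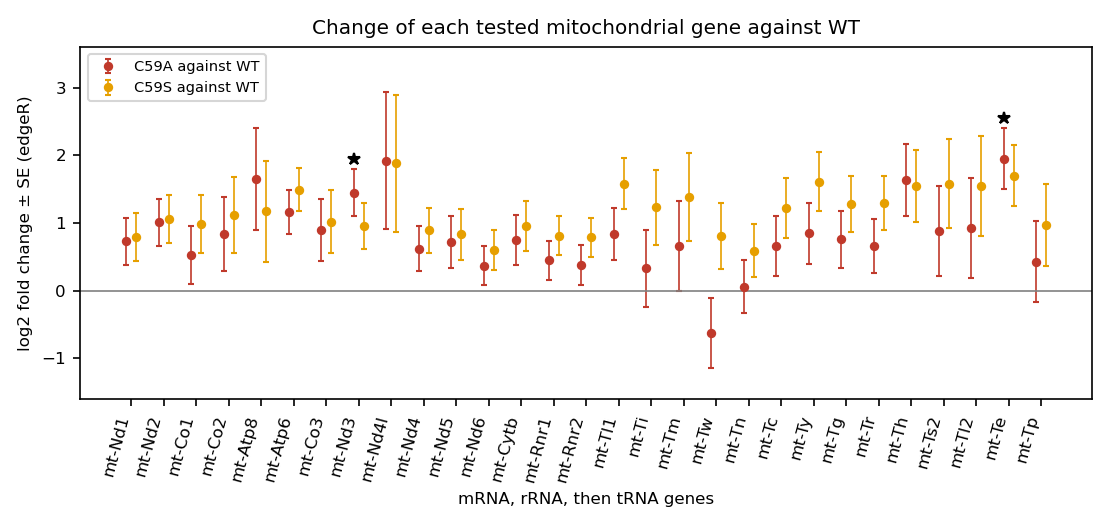
Log2 fold change with its SE (edgeR) of the 29 tested mitochondrial genes for C59A against WT and for C59S against WT, with mRNA genes first, then rRNA and tRNA genes. A star marks a call at adjusted p under 0.05, which only mt-Nd3 and mt-Te have, both for C59A. All values but that of mt-Tw in C59A are positive, and both sets of values share the same WT libraries.

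The comparison of C59S with WT libraries asks the same of the other allele, with the same WT libraries. All 29 tested genes had a positive log2 fold change, as did 51.1% of all tested genes, from 0.59 to 1.88 with a median of 1.12, against 0.01 over all tested genes. By edgeR's quasi-likelihood test 0 of the 29 passed at adjusted p under 0.05, where 0% of all tested genes were called. Unadjusted p was under 0.05 in 18 of 29, where 18.1% of all tested genes were under it. DESeq2 called 9 of the 29 (mt-Atp6, mt-Cytb, mt-Nd2, mt-Nd4, mt-Tc, mt-Te, mt-Th, mt-Tl1 and mt-Ty), where it called 3.91% of all tested genes, and limma voom called 0, where it also called 0% of all tested genes. In 19 of the 29 all C59S libraries lay above all WT libraries, which held for 11.2% of all tested genes. The titles number the replicates but state no pairing. A pairing by these numbers was assumed because same-numbered libraries deviated together in these same data, and this fit was chosen after seeing them. With the assumed pair as a block in a fit of the 6 libraries mt-Atp6 passed (log2 fold change 1.44, edgeR adjusted p = 0.032). The other 28 did not pass, where 3.82% of all tested genes were called. Because the block was chosen from the spread of these same libraries, this p cannot decide whether mt-Atp6 rose. The same block in the fit of all 9 libraries gave mt-Atp6 an adjusted p of 0.0968, and a block of the numbers in the sample names gave 1.06 with an adjusted p of 1. Without WT replicate 3, mt-Atp6 passed in the fit with no block (1.58, adjusted p = 0.0448, where 4.17% of all tested genes were called), and without each of the other 5 libraries it did not (edgeR adjusted p from 0.128 to 0.474). C59S replicate 3 carried much of the size: without it the median was 0.51, with 27 values positive, while 19 of 29 genes still had every remaining C59S library above every WT library (13.7% of all tested genes).

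The comparison of C59A with C59S libraries asks whether the alleles differ from each other. By edgeR's quasi-likelihood test 0 of the 29 passed, where 5.91% of all tested genes were called. DESeq2 and limma voom also called 0, where they called 10.3% and 10.4% of all tested genes. Unadjusted p was under 0.05 in 1 gene, where 22.9% of all tested genes were under it. It was mt-Tw, with a log2 fold change of -1.45 ± 0.51 (edgeR adjusted p = 0.123). The median was -0.37, and 24 of 29 values were negative and 5 positive, where 49% of all tested genes were positive, but without C59S replicate 3 the median was 0.11. In mt-Tw, mt-Tg and mt-Ti all C59A libraries lay below all C59S libraries, where this held for 14.5% of all tested genes.

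Scaled to the mitochondrial mRNA total of each library, the genes could be set against each other without the change in the total. The genes not wholly inside the copied span, among which mt-Nd4 and mt-Co1 are copied in part (63.57% and 31.26% of their length), varied less in their proportions than those inside it. mt-Cytb took 23.7%, 22.7% and 23.5% of the mitochondrial mRNA counts in C59A and 23.7%, 22.4% and 22% in C59S, against 23%, 20.5% and 23.6% in WT libraries, a coefficient of variation (CV) of 4.62% over the 9 libraries. The CV was 7.16% for mt-Nd1, 9.17% for mt-Nd5, 10.1% for mt-Nd2, 10.3% for mt-Nd4, 11.1% for mt-Co1 and 14.8% for mt-Nd6. Inside the span it was 18.5% for mt-Co3, 26.1% for mt-Atp6, 26.4% for mt-Co2, 39.5% for mt-Nd3, 52.5% for mt-Atp8 and 71.9% for mt-Nd4l, so every gene wholly inside the span varied more than every other mRNA. The part of the nuclear copy and of the lower counts in this was not tested.

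Outside the span, the shares of mt-Nd2 and mt-Nd6 did not overlap between C59A and WT libraries. mt-Nd2 took 11.8%, 11.3% and 11.2% in C59A and 10.6%, 10.1% and 9.66% in C59S, against 9.55%, 8.78% and 9.26% in WT libraries, with both knock-in groups above WT. mt-Nd6 took 1.67%, 1.67% and 1.62% in C59A and 1.8%, 1.83% and 1.49% in C59S, against 2.09%, 1.8% and 2.37% in WT libraries, with C59A below WT and C59S overlapping it. As a ratio per length, the FPKM of mt-Cytb, its neighbour coded on the opposite strand, was 6.19 to 6.59 times that of mt-Nd6 in C59A and 5.55 to 6.69 times in C59S, against 4.52 to 5.16 times in WT libraries. By edgeR's quasi-likelihood test on this scale 0 of 29 genes passed in C59A against WT (3.86% of all tested genes were called), 0 in C59S against WT (1.21%) and 0 in C59A against C59S (1.37%). Unadjusted p was under 0.05 in 4 genes in C59A against WT (24.4% of all tested genes), 0 in C59S against WT (4206 of all 17114 tested genes) and 2 in C59A against C59S (6.11%). On this scale 4 genes lay above and 3 below every WT library in C59A, where 1.21% and 51.8% of all tested genes did. In C59S 5 lay above and 0 below, where 0.234% and 41.2% of all tested genes did. The relative log2 fold changes in C59A against WT were 0.32 ± 0.52 for mt-Nd2 and -0.34 ± 0.49 for mt-Nd6. This fit shares its spread with the nuclear genes, which on this scale move with the mitochondrial share. Limma without sharing of the spread called 0 of the 29 in all 3 comparisons. It called only 0.117% of all tested genes in C59A against WT, 0.0117% in C59S against WT and 0.134% in C59A against C59S. With so few calls over all genes, it cannot decide whether these genes differ. A fit of the C59A and WT libraries alone called 6, with mt-Te, mt-Atp8, mt-Nd4l, mt-Nd3 and mt-Th higher and mt-Tw lower, but it called 6620 of all tested genes, or 40%. DESeq2 on all 9 libraries called mt-Te (1.21, adjusted p = 0.0474), where it called 5.35% of all tested genes.

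**Figure D4:**
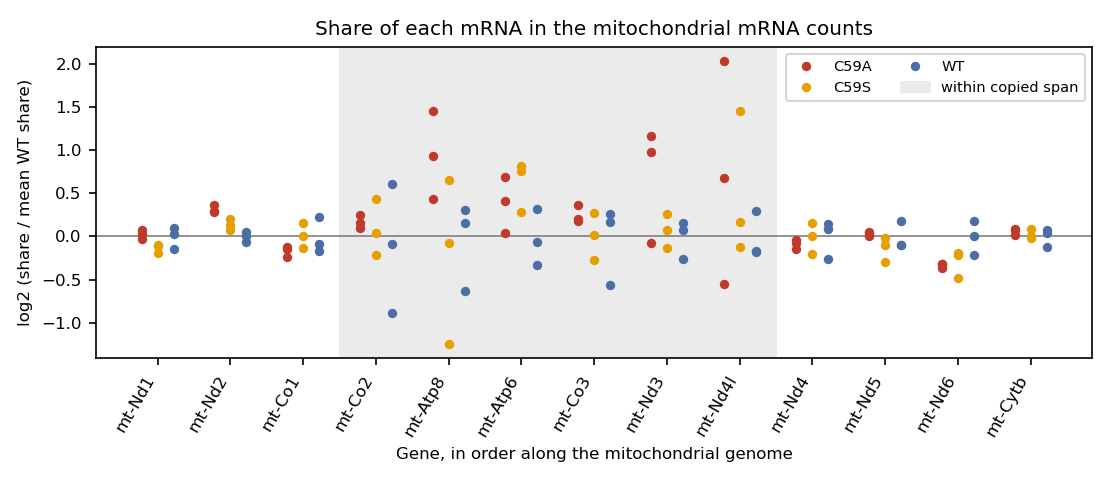
Share of each mRNA in the mitochondrial mRNA counts of its library, as log2 of the share over the mean WT share, with 1 point per library (C59A, C59S and WT from left to right at each gene) and the genes in genome order. Over the 9 libraries each shaded gene within the copied span varies more than any gene outside it, mt-Cytb stays near 0, and all C59A points of mt-Nd2 lie above and all those of mt-Nd6 below the WT points.

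By complex, the share of the mRNA counts that coded for complex IV was 27.3%, 29.1% and 28.8% in C59A replicates 1, 2 and 3, and 28.5%, 31.2% and 35.2% in C59S replicates 1, 2 and 3, against 29.5%, 36.9% and 27.2% in WT replicates 1, 2 and 3. The 2 highest, C59S replicate 3 and WT replicate 2, were also the libraries with the lowest complex I shares, 41.7% and 41.8%. In the other libraries complex I took 46.4% to 48% in C59A, 44.7% to 46.2% in C59S and 46.5% to 47.9% in WT. The groups overlapped in both shares.

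The nuclear subunits of these complexes gave no calls. None of the 36 nuclear complex I subunits, 9 of complex III, 12 of complex IV and 16 of ATP synthase that were tested passed in any of the 3 comparisons. Over all tested genes 5.7% were called in C59A against WT, 0% in C59S against WT and 5.91% in C59A against C59S. Their median log2 fold changes in C59A against WT were 0.13, 0.11, 0.07 and 0.01, and in C59S against WT 0.09, 0.05, 0.02 and 0.01. Positive values numbered 35 of 36, 7 of 9, 8 of 12 and 10 of 16 in C59A against WT, where 47.6% of all tested genes were positive. In C59S against WT they numbered 30, 7, 7 and 9, where 51.1% of all tested genes were positive. The ratio of the summed FPKM of the mitochondrial to the nuclear subunits of complex I was 14.7, 20.6 and 16.2 in C59A replicates 1, 2 and 3, and 16.6, 11.8 and 30.6 in C59S replicates 1, 2 and 3, against 14.4, 11.6 and 9.22 in WT replicates 1, 2 and 3. Here the C59A libraries lay above the WT libraries, C59A replicate 1 by the least, while C59S replicate 2 lay among the WT libraries. For ATP synthase, whose mitochondrial genes both lie in the copied span, the ratio was 0.976, 1.96 and 1.38 in C59A and 1.7, 1.24 and 2.61 in C59S, against 0.79, 0.559 and 0.633 in WT libraries, with no overlap between knock-in and WT libraries. For complexes III and IV the groups of C59S and WT overlapped, as did C59A and WT for complex IV.

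**Figure D5:**
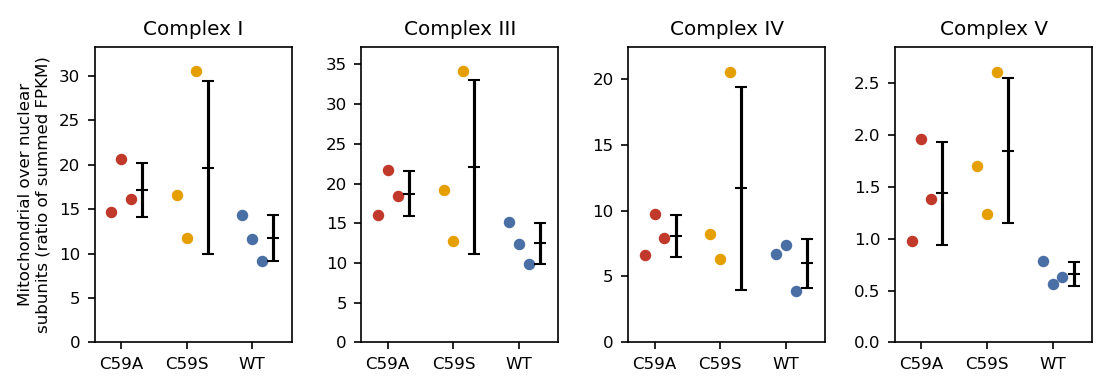
Summed FPKM of the mitochondrial subunits of complexes I, III, IV and V divided by that of their nuclear subunits, with 1 point per library in C59A, C59S and WT and, to the right of each group, the mean with its SD (n = 3). C59S replicate 3 is the highest point in every panel, and knock-in and WT points are fully apart only for complex V.

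The nuclear genes that copy and handle mitochondrial RNA were taken from lists. Of all tested genes, 5.7% were called in C59A against WT, 0% in C59S against WT and 5.91% in C59A against C59S. In mitochondrial transcription 0 of 11 tested genes passed in any comparison. Polrmt had 69.4, 73.6 and 65.4 CPM in C59A and 72.7, 50.1 and 59.5 CPM in C59S, against 85.3, 66.8 and 62.9 CPM in WT libraries, with overlapping groups. Tfam had log2 fold changes of 0.28 ± 0.13 in C59A and -0.07 ± 0.13 in C59S against WT, and Tfb2m of 0.30 ± 0.13 and 0.14 ± 0.13, none of which passed. In RNA processing and decay 0 of 33 passed against WT in either allele, and 1 was higher in C59A than in C59S. That gene was Lrpprc, which with Slirp stabilises mitochondrial mRNAs, at 89.8, 85.5 and 101 CPM in C59A and 62, 65.6 and 70.6 CPM in C59S libraries (log2 fold change 0.48 ± 0.12, edgeR adjusted p = 0.0415), with 65.1, 79.7 and 68.4 CPM in WT libraries. Lrpprc against WT was 0.37 ± 0.12 in C59A (edgeR adjusted p = 0.0992) and -0.11 ± 0.12 in C59S, and Slirp, at 1.35 to 3.69 CPM over all libraries, did not pass in any comparison.

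For the lists that follow, 3.24% of all tested genes rose and 2.46% fell in C59A against WT, and 0% were called in C59S against WT. In mitochondrial DNA replication and maintenance 1 of 17 rose in C59A against WT and 0 in C59S against WT. It was Rrm2b, a ribonucleotide reductase subunit that supplies nucleotides for mitochondrial DNA, with 19.5, 24.2 and 22.3 CPM in C59A and 19.3, 16.6 and 16.6 CPM in C59S, against 12, 13.1 and 11.9 CPM in WT libraries (log2 fold change 0.83 ± 0.13, edgeR adjusted p = 0.00413). The mitochondrial DNA polymerase Polg had -0.24 ± 0.12 in C59A and -0.35 ± 0.12 in C59S against WT, and the helicase Twnk -0.05 ± 0.13 and -0.27 ± 0.13, all as log2 fold changes that did not pass. Among 12 biogenesis regulators 0 passed against WT, and the coactivator Ppargc1a had -0.16 ± 0.16 in C59A and -0.26 ± 0.16 in C59S. Of 77 mitochondrial ribosomal proteins 1 rose in C59A against WT (Mrpl47, log2 fold change 0.59 ± 0.12, edgeR adjusted p = 0.0175), and of 13 translation factors 1 fell (Guf1, -0.54 ± 0.13, adjusted p = 0.0325). Among the 77 ribosomal proteins, 66 values were positive in C59A against WT, where 47.6% of all tested genes were. In C59S against WT 50 were positive, where 51.1% of all tested genes were. Of 12 genes of mitophagy and dynamics 3 rose in C59A against WT, where 3.24% of all tested genes rose. Among them were the autophagy receptor Sqstm1 (0.90 ± 0.18, edgeR adjusted p = 0.015) and the outer membrane fusion protein Mfn1 (0.51 ± 0.12, adjusted p = 0.0268). The other was the mitophagy receptor Bnip3l (0.42 ± 0.11, adjusted p = 0.05, just under the threshold before rounding). Of 14 mitochondrial stress response genes 0 passed against WT in either allele. Between the alleles, Psat1 (0.70 ± 0.17) and Hspe1 (0.64 ± 0.16) of that list were higher and Phgdh (-1.09 ± 0.19) lower in C59A than in C59S, as was Prkaa2 of the biogenesis list higher (0.65 ± 0.17), with edgeR adjusted p from 0.00818 to 0.0446. Between the alleles 5.91% of all tested genes were called. In C59S against WT 0 genes of these lists passed. All of the C59A values carry the difference in Y-linked transcripts given above.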

How the data were processed

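Per the labels' protocols, kidney RNA was extracted in TRIzol, and a NEBNext Ultra RNA kit was used for library preparation. The submitters' processing notes name GRCm38, fastp, CASAVA 1.8, featureCounts 1.5.0-p3, HISAT2 2.0.5 and DESeq2 1.20.0, with no settings. The counts per gene were deposited by the authors as whole numbers without normalization, and the FPKM values, per 1e+06 fragments and per gene length, were deposited by the authors per the file headers. The annotation, strand setting and treatment of reads with several alignments are not given in the sources used here. The coordinates of all 37 mitochondrial genes equal those of GENCODE M21, whose transcripts gave the sequences, and matches of 100 bases were exact.

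Counts were filtered with filterByExpr (17114 of 52636 genes), normalized by TMM, and all 9 libraries entered a single edgeR fit (version 4.0.16, R 4.3.3, robust quasi-likelihood), with Benjamini-Hochberg adjustment over all genes tested and calls at adjusted p under 0.05. A second fit used the mitochondrial mRNA total as library size. CPM are counts per 1e+06 of the scaled total. FPKM were used to compare genes with each other. The steps were tested on simulated counts with the same dispersion for every gene and known changes in nuclear genes only. Changes in mitochondrial genes or in their share of the counts were not simulated. Total counts per library were 16367403 to 25787659. Alternatives used DESeq2 1.42.0 and limma 3.58.1, other scaling, filters, blocks and libraries left out, and FPKM with a pseudocount of 0.1 or 1. Those with a replicate block in 2 groups, with copies added, without moderation and on libraries above WT with 1 left out were chosen after seeing the data.

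Same-numbered C59S and WT libraries deviated together, with correlations of 0.32, 0.20 and 0.26, so the numbers were taken to pair them. Differently numbered C59S and WT libraries had -0.25 to 0.01. For C59A and WT the same-numbered values were 0.01, -0.09 and 0.05, and for C59A and C59S -0.09, -0.29 and 0.05. Values as high also arose between libraries of different number, with 0.29 for C59A replicate 2 and C59S replicate 1. C59A replicate 3 and C59S replicate 2 had 0.25. Correlations of this size therefore cannot show that the numbers mark pairs. No 2 libraries of a genotype agreed within sampling noise (chi-square per degree of freedom of at least 22.3). All 13 mRNAs, both rRNAs and the tested tRNAs were named, with the called nuclear list members of smallest p and 8 nuclear genes whatever their p. Tubule marker, brown adipocyte, Y-linked and nuclear retained genes were named after their values were seen. The members and lists were chosen with earlier results of these data known.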

Additional observations from a re-analysis of the deposited data

How the results depend on the processing

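The count of mitochondrial genes called in C59A against WT was 2 (5.7% of all tested genes called), and 3 in a fit of the 2 groups alone (mt-Nd3, mt-Te and mt-Atp8; 4.6%). It was 1 with RLE factors, with sizes from nuclear genes, with no filter, with limma voom, with limma on FPKM (pseudocount 0.1 or 1), with the nuclear copies added, with a replicate block in the 2 groups alone and with a block of the sample names, where 0.748% to 6% of all tested genes were called. The gene called was not always the same. It was mt-Nd3 with RLE factors, sizes from nuclear genes and limma voom. It was mt-Te with limma on FPKM, the copies added and the block of the sample names. With no filter it was mt-Nd2, and with the block in the 2 groups alone mt-Atp8. The count was 0 with a replicate block of the titles (5.87%) or with unfiltered FPKM (1.54%), 5 with DESeq2 (9.48%), and 0 to 1 when a library was left out (2.85% to 4.82%). In C59S against WT it was 3 with no filter (0.984%), 9 with DESeq2 (3.91%), 1 with a replicate block in the 2 groups alone (3.82%) and 0 to 1 when a library was left out (0% to 4.17%), against 0 (0%). Relative to the mitochondrial mRNA total, C59A against WT had 1 call with DESeq2 (5.35%) and 6 in a fit of the 2 groups alone (40%), and C59A against C59S had 0 to 1 when a library was left out (mt-Atp8, without C59S replicate 3, where 4.5% were called). The genes above every WT library numbered 14 to 24 in C59A (24 without C59A replicate 1, where 16.6% of all tested genes lay above) and 19 to 24 in C59S when a library was left out, where 15.6% to 18.4% and 13.7% to 21.6% of all tested genes lay above. The mitochondrial share on summed FPKM was 40.5% in C59A, 45.6% in C59S and 33.5% in WT libraries, and on it C59A replicate 1 and C59S replicate 2 lay below WT replicate 1. Among the mRNAs, the rRNAs and mt-Te against WT, signs turned for mt-Atp8 and mt-Nd3 in C59S. With a library left out, mt-Atp8 ran from -0.06 without C59S replicate 3 to 1.66 without C59S replicate 2. On the relative scale, with a library left out, mt-Nd3 ran from -0.04 without WT replicate 2 (-0.03 without C59S replicate 1) to 0.17 without C59S replicate 3 (0.43 with the copies added), and mt-Atp8 from -0.54 without C59S replicate 3 to 0.34 without C59S replicate 2 (0.16 without WT replicate 2, 0.06 without WT replicate 3). With library totals as the only scaling, all tested genes had a median of -0.26 in C59A and -0.19 in C59S against WT, and the mitochondrial genes of 0.51 and 0.81, with 27 of 29 positive in C59A in place of 28. In C59A against C59S the median turned to 0.11 without C59S replicate 3. The replicate block changed no call in C59A against C59S. The cause of these shifts was not tested. At this depth mt-Tf and mt-Tv cannot be told from absent.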
